A study of Mus musculus with 39 samples.

Results

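DNA methylation was examined at 7 gene loci that respond to retinoic acid or specify early cell lineages: Cyp26a1, Pax6, Sox1, T, Gata4, Gata6 and Sox17. Each locus is a fixed window of the mouse genome (build mm9), 17 kb (Cyp26a1) to 60 kb (Gata4) long. The windows held 318 of the 330387 CpGs of the single-CpG table and 196 of the 377684 tiles of 200 bp in the tile table. The windows are defined by gene and position. They may hold parts of neighbours. On RefSeq GRCm38.p6, Pax6 overlaps Elp4 and Pax6os1, Gata6 overlaps Gata6os, Sox1 overlaps Sox1ot and T overlaps LOC115486424. Cyp26c1 ends 4.418 kb from Cyp26a1. The nearest genes before Cyp26a1, Pax6 and Gata4 are Gm32342 (0.192 kb), Paupar (7.553 kb) and Neil2 (4.76 kb).

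The series measured methylation in mouse embryonic stem cells (mESC) that were wild type (WT) or lacked p53 (p53-/-, here p53-null). The cells came from embryos at day 2.5, isolated after mating heterozygous p53+/- mice of the strain 129s-Trp53tm2Tyj/J. They were derived on irradiated fibroblast feeders and kept in 2i medium with LIF, which holds them in the naive state. Differentiated cells were feeder-depleted and received 1 uM retinoic acid (RA) for 4 days, replenished daily. Reduced representation bisulfite sequencing (RRBS) reads MspI fragments and counts 5-methylcytosine (5mC) and 5-hydroxymethylcytosine (5hmC) together, called total methylation here. The oxidative form, oxRRBS, reads 5mC alone. The RRBS libraries numbered 5 for naive WT, 3 for naive p53-null, 5 for RA-treated WT and 4 for RA-treated p53-null cells. Those of oxRRBS numbered 5, 3, 4 and 4 in the same order. Liver of mice aged 16 weeks was also sampled, and was not analysed here.

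The deposited tables give 1 pooled value per group. Values below therefore have no SD, and differences were not tested against the variation among libraries. Read depth is unknown. The only significance values are q-values for the genotype difference per tile in the authors' deposited table. Differences are in percentage points of methylation. Bulk cells were measured, so partial methylation in all cells and full methylation in some of them cannot be told apart.

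Retinoic acid enters the nucleus, binds receptors of the RAR and RXR families on DNA and switches their target genes on. Cyp26a1, which encodes an enzyme that breaks retinoic acid down, is among the most strongly induced targets and limits the signal. Regulators of cell lineages are held silent in stem cells, and their CpG-dense promoters are usually kept free of methylation whether the gene is on or off. Pax6 and Sox1 mark neural ectoderm, T (brachyury) marks mesoderm, and Gata4, Gata6 and Sox17 direct endoderm.

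At the measured single CpGs, all 7 loci were sparsely methylated in naive cells. In both genotypes, each locus had a higher mean over these CpGs after RA. Over the 318 CpGs, the mean total methylation was 3.47% in naive WT, 4.05% in naive p53-null, 6.90% in RA-treated WT and 6.58% in RA-treated p53-null cells. Over the whole table the same means were 9.77%, 12.6%, 16.3% and 15.1%. The loci thus stood below the table in each group, with RA-treated minus naive differences of 3.43 points (WT) and 2.53 points (p53-null) (6.48 and 2.49 points over the whole table). Among the 318 CpGs, 204 were at or under 5% in all 4 groups (64.2%), close to the 63.2% of the whole table. The tiles of 200 bp covered more of the windows. In their first set of columns, described below, WT totals averaged 10.6% over the loci and 30.1% over all tiles. Gata4 averaged 20.6%, T 19.2% and Sox17 0.650%.

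The loci differed in level. In naive WT cells the order of their mean total methylation was Gata4 (9.65%), T (7.25%), Pax6 (4.30%), Gata6 (2.14%), Sox1 (1.93%), Cyp26a1 (1.54%) and Sox17 (0.302%). After RA in WT cells it was Gata4 (16.9%), T (13.04%), Pax6 (12.4%), Gata6 (4.54%), Sox1 (4.44%), Cyp26a1 (2.38%) and Sox17 (0.395%). In WT the order of the loci was the same in both states. In naive p53-null cells T (10.96%) stood above Gata4 (10.1%). With 1 pooled value per group, no neighbouring pair in this order could be tested.

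**Figure D1:**
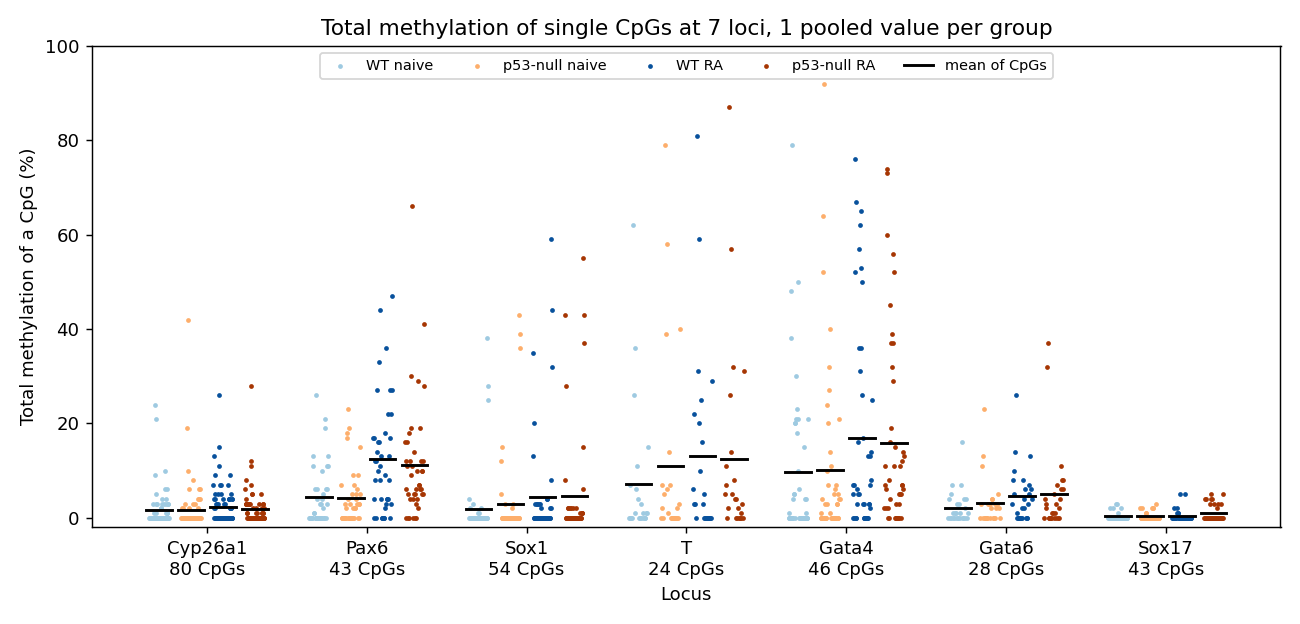
Total methylation (%) of each CpG at the 7 loci in WT and p53-null cells, naive and RA-treated. Each point is 1 CpG with its pooled group value and the black bar is the mean of the CpGs; Pax6 and Gata4 hold many CpGs that sit higher in the RA-treated groups, while all 43 CpGs of Sox17 stay at or under 5%.

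At Cyp26a1, Pax6, Sox1, T and Gata6, dense CpGs, those in tiles with at least 5 measured CpGs, had lower means than the other CpGs of the locus in each group. The 182 dense CpGs of the 7 loci had means of 1.32% in naive WT, 1.34% in naive p53-null, 3.02% in RA-treated WT and 2.45% in RA-treated p53-null cells. For the 69 CpGs in tiles with 1 or 2 measured CpGs the means were 8.64%, 11.2%, 16.0% and 16.2%. In the whole table such sparse CpGs were higher in each group, at 25.8%, 33.4%, 41.8% and 38.8%. Dense CpGs of the whole table were lower than those of the loci, at 0.763%, 0.891%, 1.37% and 1.28%. At Gata4 the dense CpGs were the higher ones in each group: its 11 dense CpGs averaged 12.9% in naive WT and 22.5% in RA-treated WT cells, and its other 35 averaged 8.63% and 15.1%. At Pax6 the 12 dense CpGs averaged 0.583% and 11.7%, and the other 31 averaged 5.74% and 12.6%. Sox17 had means under 2% for both kinds of CpG in each group, and its dense CpGs were slightly higher in the naive groups (0.306% against 0.286% in WT).

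**Figure D2:**
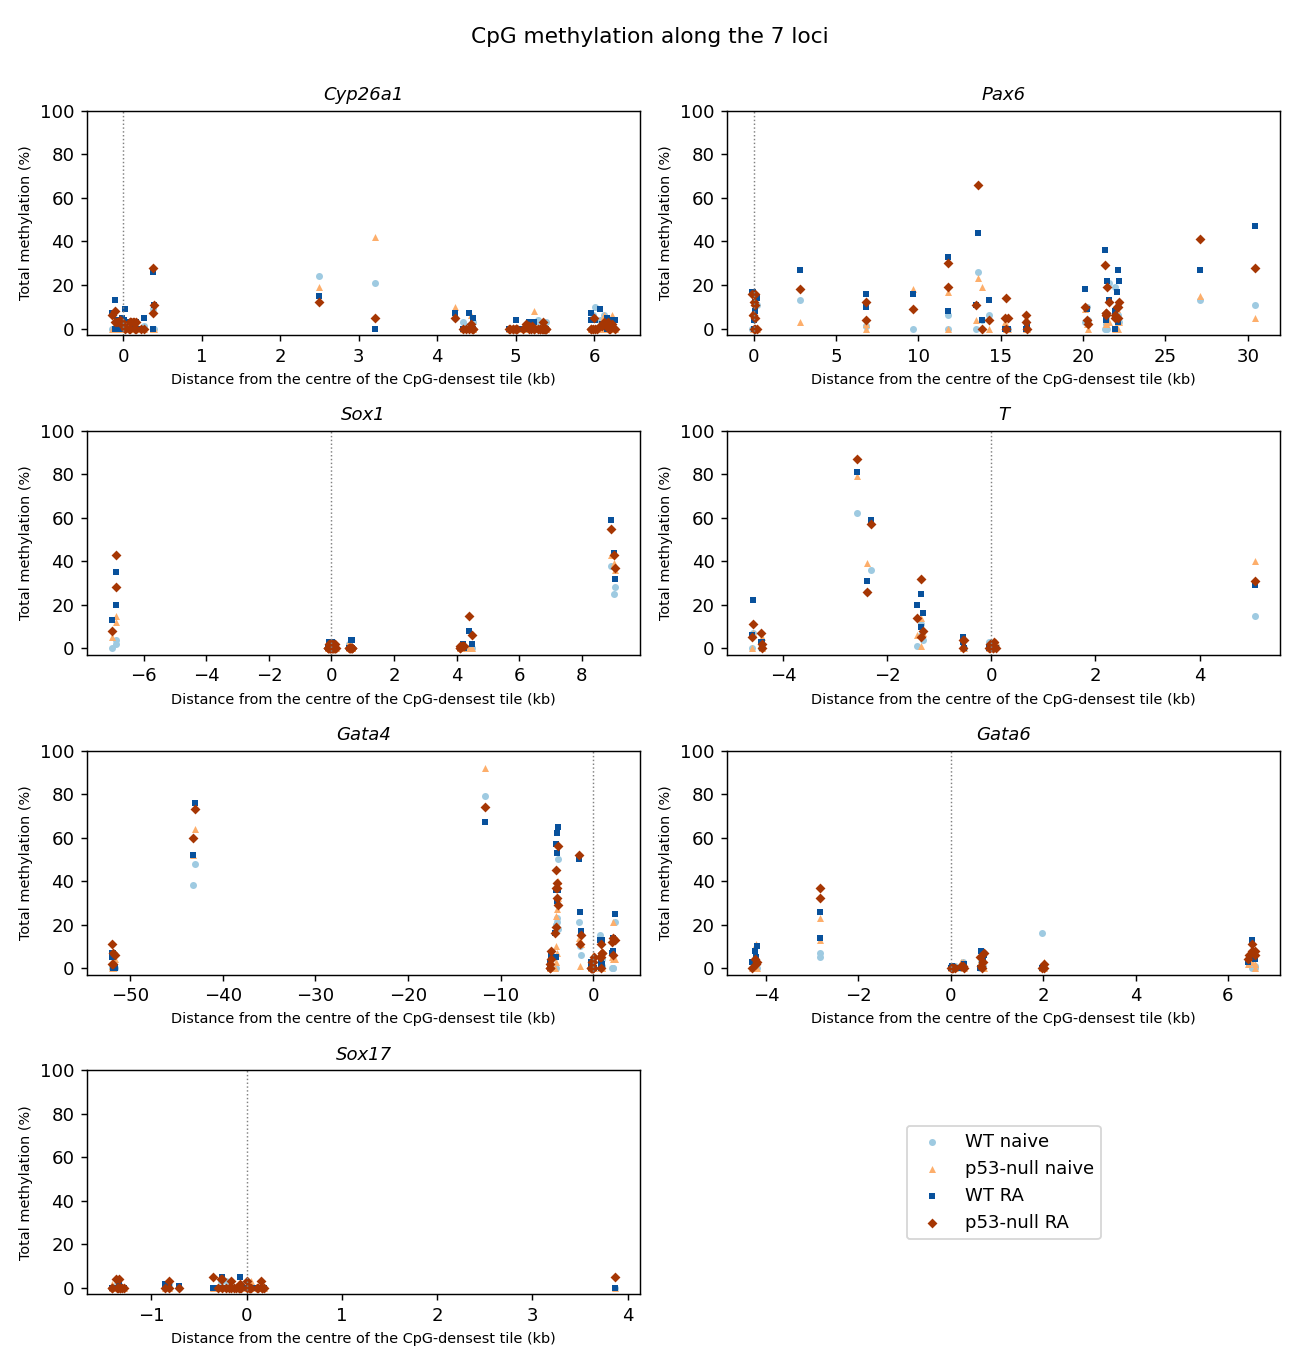
Total methylation (%) of each CpG against its distance in kb from the centre of the tile with the most measured CpGs at that locus, for the 4 groups. CpGs near the dense tile of Sox1, T, Gata6 and Sox17 lie close to 0. At Sox1, T and Gata6 the higher values lie at a distance from it, and Sox17 has no value above 5%. At Pax6 values of 10% and more occur both in the dense tile and far from it. The highest RA-treated values of Cyp26a1 (26% and 28%) lie 0.381 kb from the centre of its dense tile.

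At Cyp26a1, 62 of 80 CpGs were at or under 5% in all 4 groups. Its tile with the most measured CpGs (13 CpGs, chromosome 19, 37767401 to 37767600) had means of 0.231% in naive WT, 0.154% in naive p53-null, 3.46% in RA-treated WT and 2.46% in RA-treated p53-null cells. Both RA-treated groups were thus above both naive groups there. The tiles with at least 5 measured CpGs between 37771801 and 37773800 did not share this. In none of them were both RA-treated means above both naive means, and no mean exceeded 3.75%. The tile at 37773601 (10 CpGs), for example, had 1.80%, 2.20%, 1.90% and 1.40% in the same order. Neither these tiles nor the one at 37767401 were assigned to a gene or part of one. Whether the tile at 37767401 belongs to Cyp26a1 or to the neighbouring Cyp26c1 was not determined. The locus mean was 1.54% in naive and 2.38% in RA-treated WT cells, and 1.58% and 1.85% in the p53-null cells. This direction turned when each tile counted once, with RA-treated minus naive at -0.723 points (WT) and -2.24 points (p53-null).

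One Cyp26a1 CpG moved the other way. At position 37770710, total methylation was 21% in naive WT, 42% in naive p53-null, 0% in RA-treated WT and 5% in RA-treated p53-null cells. Both naive groups were thus above both RA-treated groups. It was the only CpG of the 318 that was lower after RA by at least 20 points in both genotypes. Over the whole table, 0.0493% of CpGs met that limit. The limit of 20 points was not among the planned ones of 10 and 25 points. At 10 points, 2 CpGs of the loci were lower in both genotypes (0.315% of the whole table). At 25 points this CpG met the limit in p53-null cells only. The nearest measured CpG before it, position 37770000, was also lower after RA, at 24% and 19% in naive WT and p53-null cells and at 15% and 12% after RA. Next to the dense tile, the CpG at 37767881 changed in the opposite direction, from 9% to 26% in WT and from 0% to 28% in p53-null cells.

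Pax6 is a transcription factor of eye and neural tube development. Of its 43 CpGs, 10 were higher after RA by at least 10 points in both genotypes, next to 9 of 46 at Gata4. Over the 7 loci 8.18% of CpGs met that limit, against 12.0% of the whole table. At 20 points, a limit that was not planned, each of the 2 loci had 2, and no share over the whole table was taken. The Pax6 promoter is shown because no other promoter of the 7 loci could be located in the CpG table. Of the measured CpGs in it, only 105522398 was among those 10. The 300 bases are RefSeq sequence on GRCm38.p6, chr2:105682213-105682512, plus strand, from 250 bases before to 50 after a start site of Pax6. Capitals mark the CpGs that were measured, 4 of the 16 in this stretch.

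Pax6 promoter: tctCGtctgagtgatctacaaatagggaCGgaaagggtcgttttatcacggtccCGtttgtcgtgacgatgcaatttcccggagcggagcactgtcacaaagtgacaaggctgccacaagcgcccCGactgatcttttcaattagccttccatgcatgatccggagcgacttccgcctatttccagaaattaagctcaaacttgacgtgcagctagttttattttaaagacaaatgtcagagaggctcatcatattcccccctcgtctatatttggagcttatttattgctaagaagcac

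Read from the 5′ end, the first capital CpG (mm9 position 105522373) had 6% in naive WT, 9% in naive p53-null, 17% in RA-treated WT and 10% in RA-treated p53-null cells. Next, 105522398 had 11%, 0%, 27% and 10% in the same order. For the third (105522424) the values were 6%, 3%, 3% and 5%, and for the fourth (105522495) they were 3%, 3%, 22% and 12%. RA-treated WT cells were highest at 3 of the 4 CpGs. The mean of the 4 was 6.50% in naive WT, 3.75% in naive p53-null, 17.3% in RA-treated WT and 9.25% in RA-treated p53-null cells.

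Across the Pax6 window, the mean over 43 CpGs was 4.30% in naive WT, 4.09% in naive p53-null, 12.4% in RA-treated WT and 11.3% in RA-treated p53-null cells. Between genotypes, p53-null minus WT was -0.209 points in naive and -1.09 points in RA-treated cells. CpGs that were higher after RA were spread over the window. At 105521648 total methylation was 0% in naive WT, 7% in naive p53-null, 36% in RA-treated WT and 29% in RA-treated p53-null cells. At 105530756 it was 11%, 5%, 47% and 28%, and at 105512112 it was 6%, 17%, 33% and 30%. For these 3 CpGs both RA-treated groups were above both naive groups. In p53-null cells the CpG at 105513916 had the largest difference after RA of the 7 loci, from 23% to 66%, with 26% and 44% in WT. The CpG at 105527390 went from 15% to 41% in p53-null cells and from 13% to 27% in WT.

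The Pax6 tile with the most measured CpGs was also higher after RA. Its 7 CpGs (105500201 to 105500400) had means of 0% in naive WT, 1.00% in naive p53-null, 10% in RA-treated WT and 9.43% in RA-treated p53-null cells. At the other 6 loci the tile with the most measured CpGs had means of at most 3.46% in each group. The centre of the Pax6 tile lay 22.1 kb from the first measured CpG of the located Pax6 promoter. No gene was assigned to this tile.

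Sox1 bends DNA like other Sox proteins and marks neural progenitors. Its centre was nearly unmethylated, and its highest values lay toward the ends of the window. Its tile with the most CpGs (23 CpGs, 12396801 to 12397000 on chromosome 8) had means of 0.174% in naive WT, 0.130% in naive p53-null, 0.739% in RA-treated WT and 0.435% in RA-treated p53-null cells. On the flank, the CpG at 12390001 had 4% in naive WT, 12% in naive p53-null, 35% in RA-treated WT and 43% in RA-treated p53-null cells. Each genotype was thus 31 points higher after RA. On the far side, the CpG at 12405815 had 38%, 43%, 59% and 55%. The locus mean was 1.93% in naive WT, 2.93% in naive p53-null, 4.44% in RA-treated WT and 4.65% in RA-treated p53-null cells.

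T, the founding member of the T-box factors, also had low values at its centre, and its highest values lay away from it. Of the 7 loci, T had the largest mean difference between genotypes in naive cells (3.71 points, and 7.90 with each tile counting once). Over the whole table the mean difference was 2.82 points. The median difference over the CpGs of T was 0 points. Its tile with the most CpGs (8 CpGs, 8626801 to 8627000 on chromosome 17) had means under 1% in all 4 groups. The locus mean was 7.25% in naive WT, 10.96% in naive p53-null, 13.04% in RA-treated WT and 12.5% in RA-treated p53-null cells, so naive WT cells stood alone as low. At 8631971 total methylation was 15% in naive WT, 40% in naive p53-null, 29% in RA-treated WT and 31% in RA-treated p53-null cells. It was the only CpG of the 318 with a genotype difference of at least 25 points in naive cells. Over the whole table, 3.75% of CpGs were higher in naive p53-null cells by that much and 0.192% were lower.

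Gata4, a zinc-finger factor of primitive endoderm and heart, had the highest mean of the 7 loci in each group except naive p53-null cells, where T was higher. Its means were 9.65% in naive WT, 10.1% in naive p53-null, 16.9% in RA-treated WT and 15.8% in RA-treated p53-null cells. Its tile with the most CpGs (6 CpGs, 63864401 to 63864600 on chromosome 14) had means of 0%, 1.83%, 0% and 0.500%. Among its tiles with at least 4 measured CpGs, the highest means were about 4 kb from that tile, in neighbouring tiles that start at 63860401 and 63860601. Farther out, the single measured CpGs of the tiles at 63821201, 63821401 and 63852601 were higher still, at 38% to 92% over the 4 groups. The 4 CpGs of the former had means of 11.3% in naive WT, 9.25% in naive p53-null, 28.5% in RA-treated WT and 29.3% in RA-treated p53-null cells. For the 5 CpGs of the latter they were 28.4%, 25.2%, 49.4% and 38.6%. In both tiles, both RA-treated groups were above both naive groups.

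Single Gata4 CpGs repeated this. At 63860470 total methylation was 20% in naive WT, 24% in naive p53-null, 57% in RA-treated WT and 45% in RA-treated p53-null cells. At 63860475 it was 20%, 10%, 36% and 37%. At 63862987, between these tiles and the dense tile, it was 21%, 14%, 50% and 52%. A distant CpG at 63821532 had 48% in naive WT, 64% in naive p53-null, 76% in RA-treated WT and 73% in RA-treated p53-null cells, so only naive WT was far below the rest. The Gata4 CpG at 63852788 was lower after RA in both genotypes, from 79% to 67% in WT and from 92% to 74% in p53-null cells.

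Gata6, a relative of Gata4 that starts the primitive endoderm program, had low means over its 28 measured CpGs in all 4 groups. Its mean was 2.14% in naive WT, 3.11% in naive p53-null, 4.54% in RA-treated WT and 5.04% in RA-treated p53-null cells. Its highest CpG after RA, 11049870 on chromosome 18, had 7%, 23%, 26% and 37% in the same order, and its neighbour 11049860 had 5%, 13%, 14% and 32%. At both, p53-null cells were above WT in each state. No Gata6 CpG changed by 25 points in any of the 4 comparisons.

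Sox17, which directs definitive endoderm, was the least methylated locus. Its mean was 0.302% in naive WT, 0.349% in naive p53-null, 0.395% in RA-treated WT and 0.930% in RA-treated p53-null cells. All of its 43 CpGs were at or under 5% in every group, and 21 were at 0% in all 4. In the tile table, Sox17 tiles of the first set averaged 0.650% total methylation in WT against 0.363% in p53-null cells. Differences of this size cannot be weighed without the depth.

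After RA, values higher by at least 25 points were found at 9 of the 318 CpGs in WT against 7 in p53-null cells. The whole table had 11.7% and 4.29% of its CpGs past that limit, against 2.83% and 2.20% at the loci. Values lower by that much numbered 0 in WT against 1 in p53-null cells, with 0.0660% and 0.864% over the whole table. At a limit of 10 points, 49 CpGs were higher and 4 lower in WT (15.4% and 1.26%, against 23.8% and 0.802% of the whole table). In p53-null cells 36 were higher and 5 lower (11.3% and 1.57%, against 14.1% and 4.46%). In both genotypes together, 26 CpGs were higher after RA by at least 10 points, or 8.18%, against 12.0% of the whole table. Of these, 10 were at Pax6, 9 at Gata4, 3 at Sox1, 2 at Cyp26a1 and 1 each at Gata6 and T. The CpGs lower by at least 10 points in both genotypes were the Cyp26a1 CpG at 37770710 and the Gata4 CpG at 63852788, against 0.315% of the whole table.

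Between genotypes, the mean differences at the loci were nearer to 0 than those over the whole table. In naive cells the mean p53-null minus WT difference was 0.582 points at the loci and 2.82 points over the whole table. After RA it was -0.324 points at the loci and -1.17 points over the whole table. After RA no CpG of the loci differed between genotypes by 25 points, and over all CpGs 0.281% were higher without p53 and 1.15% were lower. At a limit of 10 points, naive p53-null cells had 17 CpGs higher (5.35%) and 12 lower (3.77%), against 14.0% and 1.88% of the whole table. RA-treated p53-null cells had 9 higher (2.83%) and 11 lower (3.46%), against 3.45% and 9.10%.

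The tile table also gives 5mC and q-values. It has 2 sets of columns whose headings name genotype and modification but no cell state, so no state was assigned. Their totals were closest to different CpG columns: over the whole table, the first-set WT total had a median absolute deviation of 1.57 points from the naive WT column and 11.01 points from the RA-treated WT column. The second-set WT total deviated by 2.40 points from the RA-treated WT column and by 8.52 points from the naive one. Of the 196 tiles of the loci, 136 had values in the first set, 140 in the second and 122 in both.

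For total methylation in the first set, 20 tiles of the loci were called higher in p53-null cells in the authors' deposited table and 0 lower, where a call needs a q under 0.05 and a size of 10 points or more. That is 14.7% of 136 tiles, and 28.1% of the whole table was called higher and 0.786% lower. The 20 tiles were 7 at Gata4, 5 at T, 4 at Cyp26a1, 2 at Pax6 and 1 each at Gata6 and Sox1. Sox17 had none. For 5mC, the authors' deposited table called 14 tiles of the loci higher and 5 lower, with 36.6% and 6.03% over the whole table. Among the 20 higher totals in the authors' deposited table, 11 were also called higher for 5mC, which is 55% of the former and 78.6% of the latter. Over the whole table these shares were 55.5% and 42.6%.

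The 20 tiles with higher first-set totals started at least 2.4 kb from the start of the tile with the most measured CpGs of their locus. The share of all tiles beyond that distance was not taken, so this is a description only. At Gata4 the tile 63823601 to 63823800 had a first-set total of 23.1% in WT against 84.0% in p53-null cells (q = 2.49e-06 in the authors' deposited table). Its second-set totals were 77.3% and 51.9%, so only first-set WT was low. Its 5mC did not follow, at 51.3% in WT against 54.2% in p53-null cells in the first set. In first-set WT the total minus 5mC was -28.2 points, which cannot be a 5hmC level. The WT total and 5mC of this tile thus disagree, and which of them is off was not tested. In first-set p53-null cells the total minus 5mC was 29.8 points. The Gata4 tile 63821601 to 63821800 had totals of 33.6% in WT against 70.0% in p53-null cells (q = 2.29e-05 in the authors' deposited table) and 5mC of 42.4% and 63.2%. For the Gata4 tile at 63852401 the totals were 42.4% and 75.0%, with 5mC of 40% and 63.8%.

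At T the tile 8624201 to 8624400 had first-set totals of 38.0% in WT against 71.6% in p53-null cells (q = 3.81e-05 in the authors' deposited table). Its 5mC was 24.5% and 64.3%. The T tile 8630001 to 8630200 had the largest 5mC difference of the loci, 20.5% in WT against 91.5% in p53-null cells, with a q listed as 0 in the authors' deposited table. With a p53-null total of 61.4%, the total minus 5mC was -30.1 points there, which is below 0. The T tile at 8631601 had totals of 5.22% and 24.8%.

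Called tiles at the other loci were fewer. The Cyp26a1 tile 37777401 to 37777600 had first-set totals of 60.5% in WT against 85.7% in p53-null cells and 5mC of 43.5% and 84.6%. The Cyp26a1 tile at 37775401 had totals of 23.95% and 38.0% and 5mC of 24.7% and 55.1% (q = 2.71e-11 for 5mC in the authors' deposited table). Its p53-null total minus 5mC was -17.1 points, which is below 0. The Pax6 tile 105511801 to 105512000 had totals of 3.77% and 28.8% and 5mC of 0% and 16.3%. The other Pax6 tile with a called total, at 105513601, had totals of 0% and 14.6% but 5mC of 21.6% and 0%, called lower in the authors' deposited table (q = 3.49e-05). The Gata6 tile at 11083401 had totals of 34.9% and 59.0%, and 5mC of 40% and 23.2%. The Sox1 tile at 12405801 had totals of 27.4% and 37.7%, and 5mC of 17.7% and 12.95%. At this second Pax6 tile and at those of Gata6 and Sox1, the total was higher and 5mC lower in p53-null cells. Of these 5mC differences only the one at Pax6 was called. At Gata6 its q was 0.101 in the authors' deposited table, and at Sox1 its size was -4.77 points. In WT, total minus 5mC was -21.6 points at this Pax6 tile and -5.12 points at Gata6, which cannot be 5hmC levels.

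The Cyp26a1 tile 37770601 to 37770800, which holds the CpG lower after RA, also gave different answers for the 2 measures. Its first-set total was 5.98% in WT against 17.04% in p53-null cells, called higher in the authors' deposited table (q = 0.0160). Its 5mC was 18.6% in WT against 3.49% in p53-null cells, called lower in the authors' deposited table (q = 1.92e-06). The total includes 5mC, so the WT difference of -12.6 points between them cannot be a 5hmC level. In the second set the totals were 3.88% and 3.42% and the 5mC levels were 4.17% and 3.96%, so all 4 values were low.

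**Figure D3:**
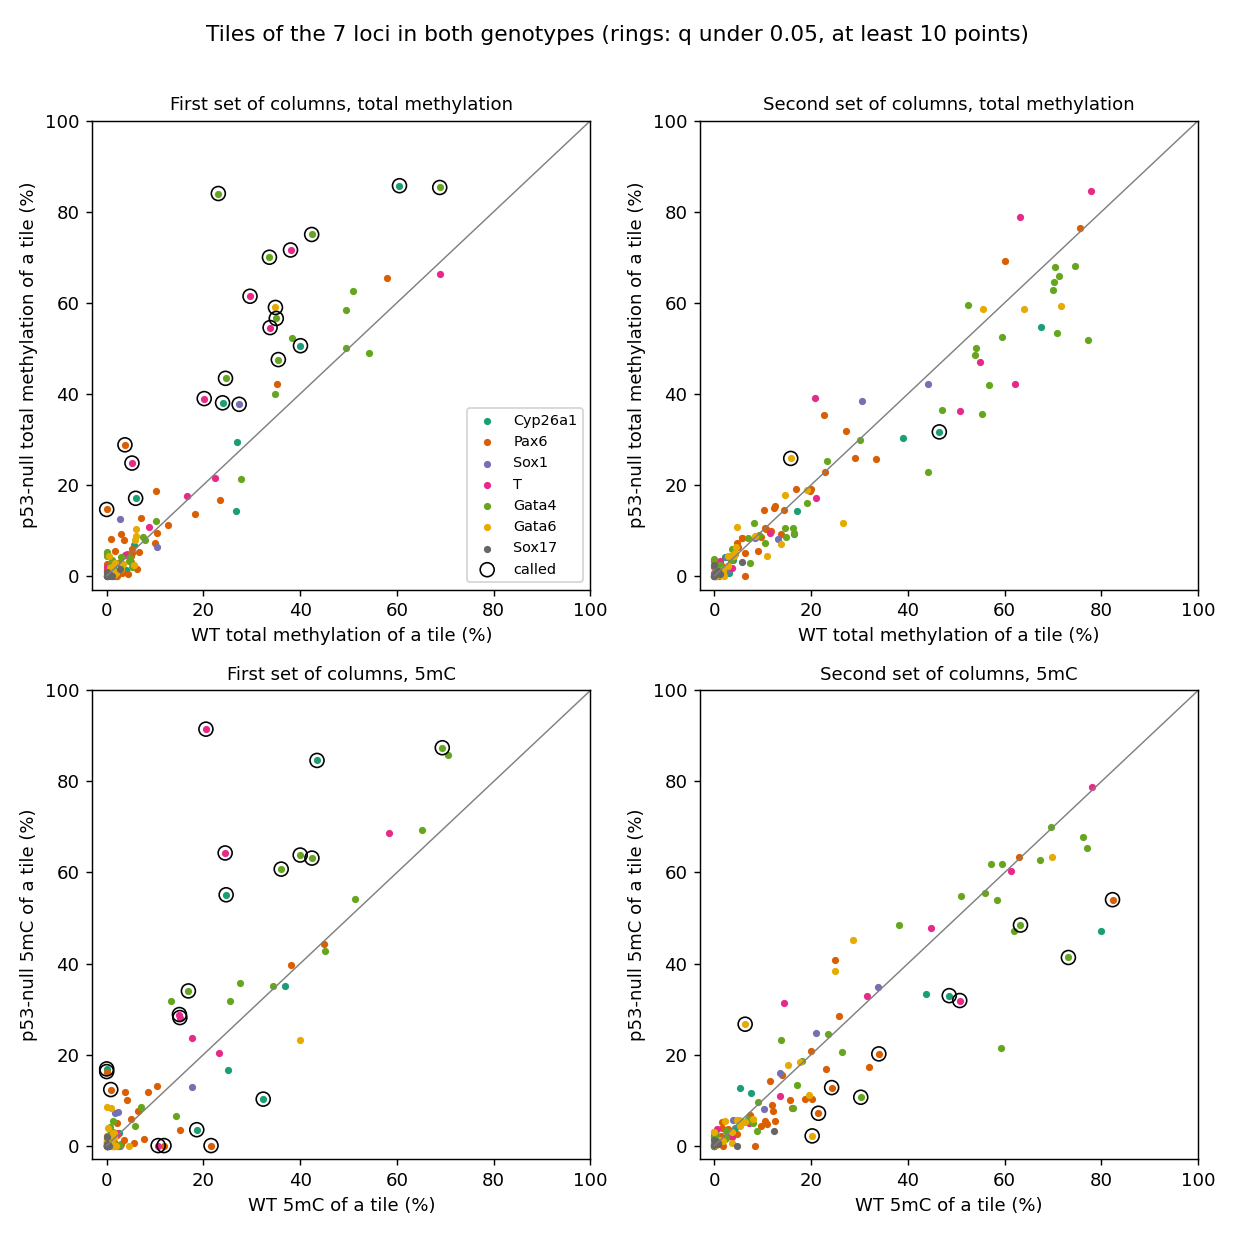
Methylation (%) of each tile of the 7 loci in WT (horizontal) and p53-null cells (vertical), for total methylation and 5mC in both column sets. Black rings mark tiles called in the authors' deposited table, and the grey line marks equal values; all 20 ringed tiles of the first set's totals lie above the line, and in the second set the rings for 5mC lie mostly below it.

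Few tiles were called in the second set. For total methylation the authors' deposited table called 1 tile of the loci higher, at Gata6, and 1 lower, at Cyp26a1, with 0.481% and 3.65% over the whole table. For 5mC it called 1 tile higher and 10 lower, and the whole table of the authors' deposited table had 2.81% and 12.3%. Those 10 tiles are 7.14% of the 140. The Cyp26a1 tile at 37777201 had second-set totals of 46.5% in WT against 31.6% in p53-null cells. The Pax6 tile at 105536401 had second-set 5mC of 82.3% and 54.0%, and totals of 75.5% and 76.5%. The Gata4 tile at 63821801 had second-set 5mC of 73.2% and 41.3%.

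Among the 20 tiles called higher in the first set in the authors' deposited table, 18 had second-set values. In 16 of those 18 the p53-null total was below the WT total in the second set, with a median difference of -7.30 points and a range from -25.4 to 18.4 points. Over the whole table, 65.4% of such tiles were lower. Of these 18, only the Cyp26a1 tile at 37777201 was called for total methylation in the second set of the authors' deposited table. For second-set 5mC, the authors' deposited table called the Cyp26a1 tile at 37775401 lower by -15.6 points (q = 0.0483) and the Gata4 tile at 63844201 lower by -14.8 points (q = 0.0424).

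Within WT, tiles with values in both sets were higher in the second set at every locus, by 0.566 points at Sox17, 2.05 at Cyp26a1, 5.14 at Sox1, 5.39 at Gata6, 9.41 at Pax6, 14.4 at Gata4 and 14.9 at T. Of the 122 tiles, 42 were higher by at least 10 points (34.4%), against 54.6% of the whole table. Within p53-null cells the differences were 0.659 at Sox17, 2.62 at Gata6, 3.44 at Sox1, 5.85 at T, 1.87 at Gata4 and 8.29 at Pax6, and at Cyp26a1 the difference was -4.43 points. The count of p53-null tiles at least 10 points higher was 20 of 122 (16.4%), against 23.6% of the whole table. For 5mC, Pax6 had second-set levels higher by 12.1 points in WT against 8.43 points in p53-null cells, and Gata4 by 13.8 and 5.39 points.

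The difference between total methylation and 5mC is an estimate of 5hmC, the oxidised form made by TET enzymes. At the loci it was small on average: 1.49 points in WT against 2.95 in p53-null cells in the first set, and 1.06 and 1.62 points in the second. For all tiles it averaged 5.96 and 5.10 points (first set) and 1.96 and 2.84 points (second set). In the first set, 11 of 136 WT tiles had a total at least 10 points over 5mC (8.09%, with 31.7% over the whole table), and 21 p53-null tiles did (15.4%, with 30.5%). In the second set there were 11 of 140 tiles in each genotype (7.86%), with 19.9% and 20.0% over the whole table. The reverse, 5mC at least 10 points over the total, occurred at 7 first-set WT tiles (5.15%, with 8.09% over the whole table). A gap below 0 cannot be a 5hmC level.

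One Gata4 tile had this gap in every column. The tile 63860601 to 63860800 had first-set totals of 27.9% in WT against 21.3% in p53-null cells with 5mC of 1.39% and 2.96%. In the second set its totals were 47.0% and 36.5% with 5mC of 23.6% and 24.6%. The gap was thus 26.5 points (WT) and 18.3 points (p53-null) for the first set, and 23.4 and 11.9 points for the second. No other tile of the loci had a gap of at least 10 points in both genotypes and both sets, and 1.24% of the whole table did. The mean of its 5 CpGs was higher after RA in both genotypes, while 1 of them, at 63860648, went from 32% to 29% in p53-null cells. The next Gata4 tile, 63860401 to 63860600, had first-set totals of 7.95% and 7.89% with 5mC of 0.709% and 0.488%. In the second set its 5mC differed by genotype, 30.2% in WT against 10.6% in p53-null cells (q = 5.08e-05 in the authors' deposited table), while its totals were 30.0% and 29.7%.

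**Figure D4:**
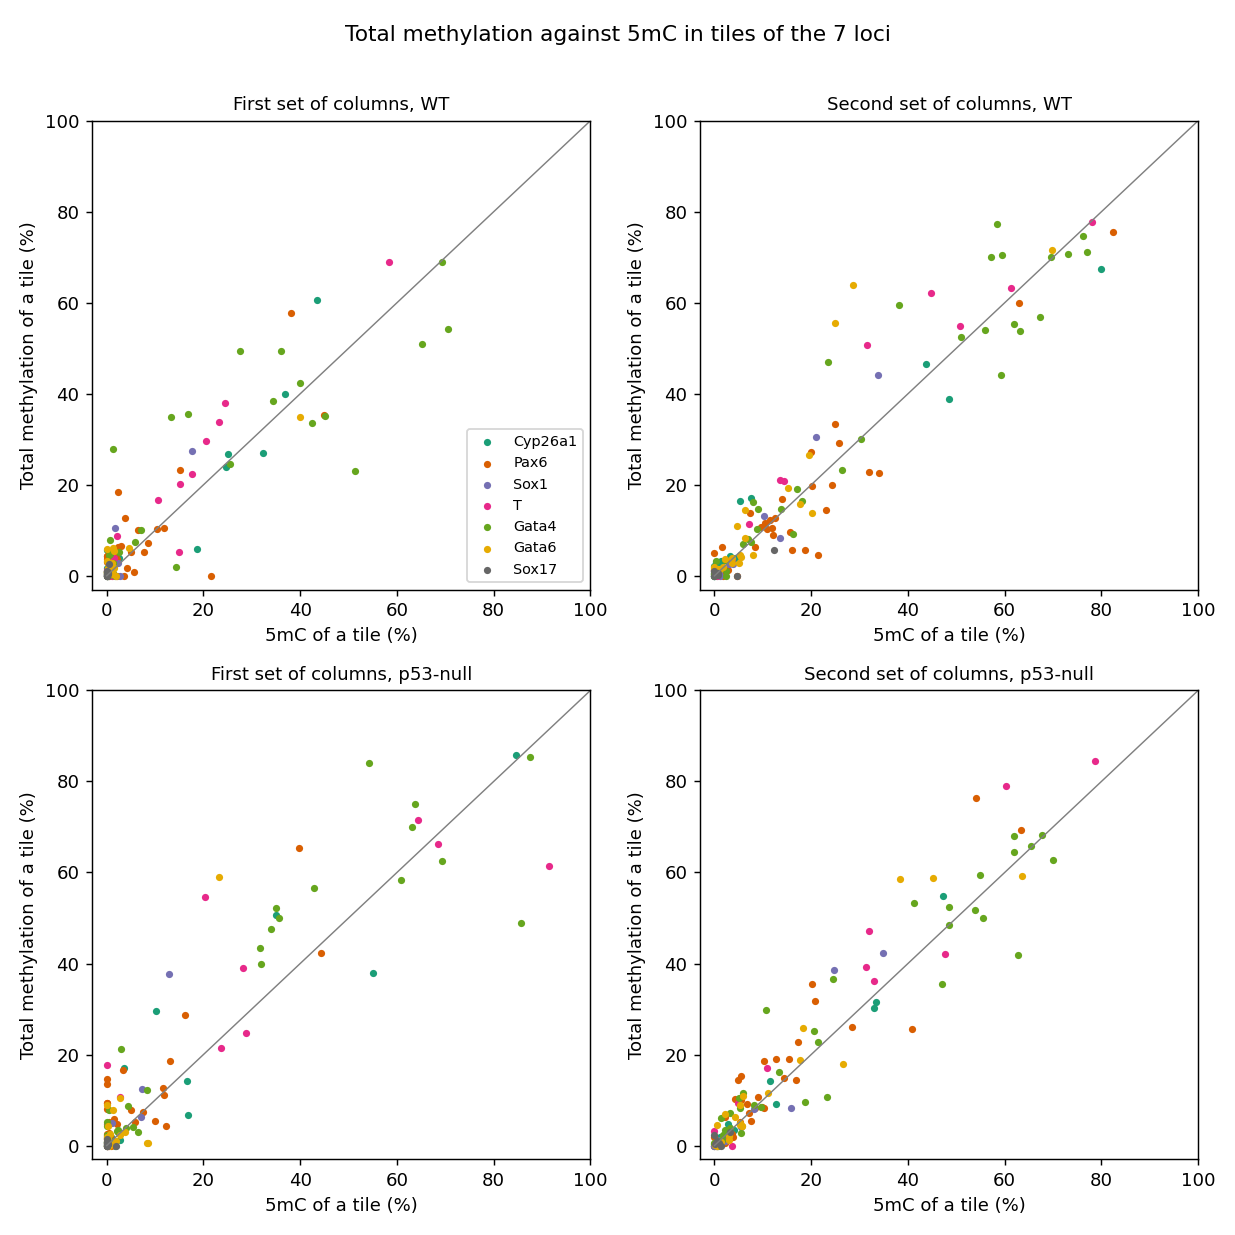
Total methylation (%) against 5mC (%) for each tile of the 7 loci, by genotype and column set, with a grey line where both are equal. Points above the line have a total over 5mC; points of several loci also lie below it.

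Further genes of the retinoic acid pathway and of the germ layers were looked up by promoter sequence. Of a list of 48 genes, 36 had a RefSeq promoter sequence, and 3 could be located in the CpG table by the spacing of their CpGs: Rarb, Meis1 and Sox2. Rarb encodes a retinoic acid receptor that RA itself induces, Meis1 is a homeobox cofactor of Hox proteins, and Sox2 is a factor of stem cells and neural ectoderm. The Rarb promoter is shown because a binding motif of the receptors overlaps one of its measured CpGs. It is RefSeq sequence on GRCm38.p6, chr14:16575427-16575726, minus strand, and capitals mark the 7 measured CpGs of 17.

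Rarb promoter: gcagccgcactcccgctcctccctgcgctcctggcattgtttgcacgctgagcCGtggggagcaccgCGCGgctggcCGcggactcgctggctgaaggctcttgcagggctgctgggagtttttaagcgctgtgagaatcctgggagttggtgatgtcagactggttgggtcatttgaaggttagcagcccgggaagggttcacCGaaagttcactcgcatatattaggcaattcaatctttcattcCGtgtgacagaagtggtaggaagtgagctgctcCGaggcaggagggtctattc

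The motif searched, on both strands, was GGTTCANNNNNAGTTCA, a direct repeat modelled on the known Rarb element. Its occurrence in Rarb was thus set in advance and is no result of the search. The motif occurred at bases 198 to 214 of this stretch as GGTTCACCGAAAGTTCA. With Rarb included, 2 of 32851 promoters of the same length held it (0.00609%). No other motif was searched. The CpG within it had 0% in both naive groups, 0% in RA-treated WT and 3% in RA-treated p53-null cells. All 7 Rarb CpGs were at or under 3% in each group. The 9 measured Meis1 CpGs reached at most 5% and the 15 measured Sox2 CpGs at most 2%. The means of the located Pax6 promoter were above those of these 3 in each of the 4 groups.

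**Figure D5:**
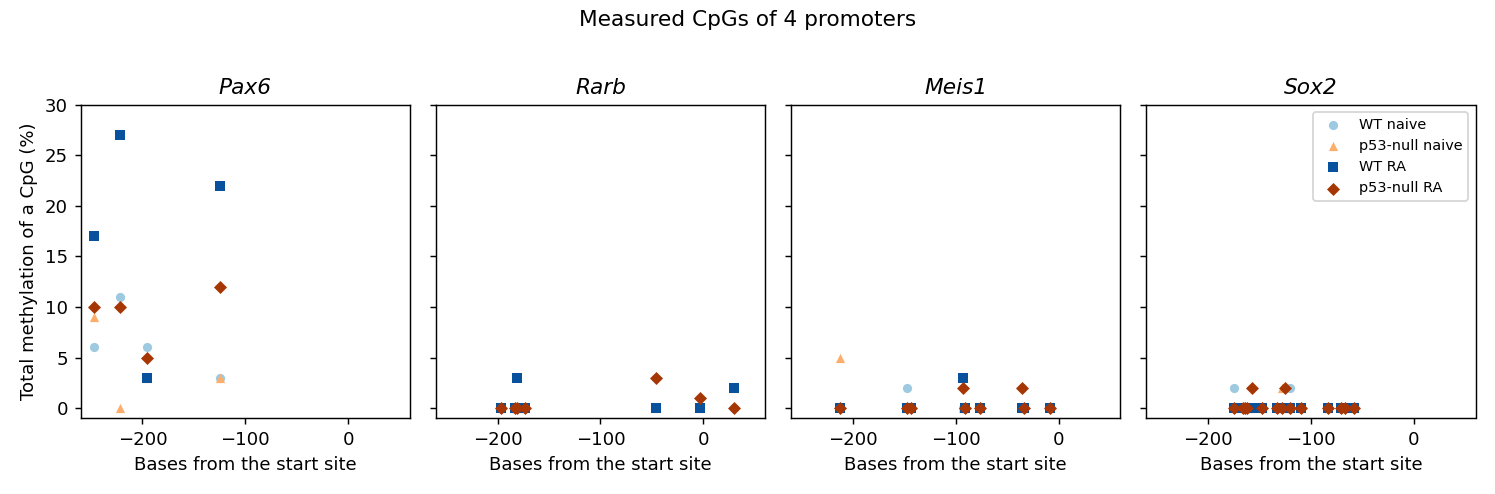
Total methylation (%) of the measured CpGs of 4 promoters against their distance in bases from the start site, in the 4 groups. Pax6 reaches 27% in RA-treated WT cells, and the CpGs of Rarb, Meis1 and Sox2 lie at or under 5%.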

How the data were processed

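DNA was cut with MspI before RRBS and oxRRBS, per the labels' protocols, and the 33 mESC libraries fall into 8 groups. The submitters' processing notes name Trim Galore, BSMAP, methylKit and build mm9; their versions, roles and coverage filters, and how libraries were pooled, are not given in these sources. Total methylation per CpG was deposited by the authors as whole percent values, 1 column per group. The tile table was deposited by the authors as fractions, with q-values, and fractions were multiplied to percent. A deposited q of -1 was taken as no q-value. Another 8 value columns, whose headings name no tissue or have an undefined suffix, were not used, so liver was not analysed here.

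Means count each CpG or tile once. With pooled values the planned models over libraries could not be run. The windows, gene list and site rules were chosen with earlier results of these data known. Named CpGs were, per locus and comparison, up to 3 each way of at least 25 points and 1 per 1000 bp; named tiles likewise among those called; the further Cyp26a1, Gata4, Sox1 and Gata6 sites and the Gata4 tile with a gap between total and 5mC were chosen after their values were seen.

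RefSeq promoters (GRCm38.p6) were placed by exact CpG spacing, since no mm9 genome was used: 4 of the 7 members had a sequence, and 1, Pax6, was placed, at the only such place on its chromosome, from at least 4 measured CpGs. A looser match that also allowed the complementary base had given a doubtful Sox1 placement and was dropped for members after that was seen. The 48 listed genes needed at least 6 measured CpGs and a lead of 2 over the next place, a rule also set after looking. The counting of calls was tested on simulated data. Python 3.11.15, numpy 2.4.6, pandas 2.3.3 and matplotlib 3.10.9 were used. Alternatives were each tile or each locus counting once, CpGs above 0 only, other call limits, and leaving out single loci, the last chosen after seeing the data.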

Additional observations from a re-analysis of the deposited data

Results flagged for a closer look

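At 3 loci the mean total methylation of p53-null cells was above WT in naive cells and below it in RA-treated cells. The mean over the whole table changed sign in the same way, from 2.82 points in naive to -1.17 points in RA-treated cells. The change of sign is thus not particular to these loci. Subtracting the naive from the RA-treated genotype difference gave -4.29 points at T, -1.46 points at Gata4 and -0.562 points at Cyp26a1. At T the difference was 3.71 points in naive cells and -0.583 points after RA. At Gata4 it was 0.413 and -1.04 points, and at Cyp26a1 it was 0.0375 and -0.525 points. With each tile counting once, the naive and RA-treated differences were 7.90 and -0.344 points at T, 1.48 and -0.015 points at Gata4, and 1.36 and -0.158 points at Cyp26a1. The signs were the same in both ways of counting, and each of these sizes moved by more than 1.5 times. These changes of sign were not tested, since each group has 1 pooled value.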

How the results depend on the processing

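The main means over the 318 CpGs were 0.582 points (p53-null minus WT, naive), -0.324 (the same after RA), 3.43 (RA minus naive, WT) and 2.53 (RA minus naive, p53-null). In that order they were 1.57, -0.116, 5.25 and 3.57 with each tile counting once, and 0.851, -0.287, 3.85 and 2.71 with each locus counting once. With CpGs above 0 in any group they were 0.774, -0.431, 4.57 and 3.36. Without Gata4 they were 0.610, -0.202, 2.79 and 1.98, without T 0.327, -0.303, 3.24 and 2.61, and without Cyp26a1 0.765, -0.256, 4.31 and 3.29. None of the 4 means changed sign in these settings. At Cyp26a1 alone, RA minus naive changed sign with each tile counting once, to -0.723 (WT) and -2.24 (p53-null), where the CpG at 37770710, alone in its tile, has more weight.

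With a limit of 10 in place of 25 points, 17 CpGs were higher and 12 lower in naive p53-null cells, and 9 higher and 11 lower in RA-treated p53-null cells. After RA 49 were higher and 4 lower in WT, and 36 higher and 5 lower in p53-null cells.

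For tiles called in the authors' deposited table, q under 0.01 and at least 25 points left 5 higher totals in the first set, and for 5mC 4 higher and 0 lower. In the second set it left none of the totals (0 each way), and for 5mC 0 higher and 2 lower. In the authors' deposited table, q under 0.05 at any size gave 3 lower totals in the first set, 30 higher and 15 lower tiles for 5mC there, and in the second set 2 higher totals and 4 tiles with higher 5mC. Only tiles in both sets left 0 higher for 5mC in the second set of the authors' deposited table. The cause of these changes was not tested beyond the limits themselves.

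No paired analysis was possible because each group has a single pooled column without replicate numbers. For the same reason leaving out replicates was not run, and the unknown depth limits every value.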
